A study of Homo sapiens with 6 samples.

Results

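The collagen genes of YAPC cells were followed gene by gene between cells with induced GLI2 and cells with an empty vector. Members were all entries of the deposited table whose name is COL, digits, A and digits, with no further letters or hyphen, and the entry with the highest mean was kept per name. This gave 44 genes, covering 28 collagen types, of the 25442 genes in the table. YAPC is an established human pancreatic ductal adenocarcinoma (PDA) line, used in the study as a model of the classical subtype. The iGLI2 group is YAPC-rtta-GLI2, with Flag-tagged human GLI2 cDNA in the doxycycline-responsive vector pRetroX-Tight-Puro, and the iEV group is YAPC-rtta-EV, with the same vector and no insert. Both groups therefore carried the vector system and both were kept in doxycycline (Dox) for 6 days, so they differ in the insert and not in the drug. RNA-seq was done on 3 libraries per group, and the labels do not say whether these came from separate cultures, so p-values measure the spread between these libraries, which may be technical. Whether the cells were a clone or a pool was not given in the sources used here.

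Collagens are secreted or membrane-anchored proteins built of chains with long runs of Gly-X-Y repeats, which wind around each other into a helical trimer. A trimer can hold copies of a single chain or chains from several genes, so that a collagen type may need more than one transcript. Fibril-forming collagens give tissues tensile strength, type IV forms the network of basement membranes, type VI forms beaded filaments around cells, type VII forms the fibrils that anchor epithelia to the stroma, and the transmembrane collagens sit in the plasma membrane. In PDA most fibrillar collagen of the stroma is made by fibroblasts and stellate cells, while epithelial cells contribute mainly to the basement membrane.

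The table holds values without a named unit, read here as FPKM (fragments per kilobase of transcript, scaled to the size of the library), which is a level per transcript length, so levels of different genes can be set side by side. Total FPKM lay between 981344 and 1082687 in iEV and between 803149 and 889559 in iGLI2 libraries. The short RNA gene MIR4461 took 42.6% to 45.4% of the total in iEV and 35.7% to 37.7% in iGLI2 libraries, so the groups differed in both. GLI2 stood at 0.466, 0.412 and 0.344 FPKM with the empty vector and at 94.5, 207 and 195 FPKM with the insert (replicates 1, 2 and 3), so iGLI2 replicate 1 had the lowest GLI2 of its group. Of 6 epithelial markers, EPCAM, CDH1, KRT19 and KRT7 were above 50 FPKM in every library, and KRT8 and KRT18 were listed at 0 in all 6 libraries. EPCAM was 1.29-fold and CDH1 1.30-fold higher in iGLI2 cells (limma adjusted p = 0.00709 and 0.0169), while KRT19 and KRT7 did not pass the test (0.195 and 0.388), and the summed level of the list was 1890 to 2044 FPKM in iEV and 1728 to 2010 FPKM in iGLI2 libraries. Since KRT8 and KRT18 are keratins of simple epithelia, a value of 0 in this table is not read as absence. Of 9 markers of fibroblasts and stellate cells, 8 were under 1 FPKM in every library, with DCN and POSTN listed at 0, and their summed level was 0.967 to 1.37 FPKM in iEV and 0.798 to 1.07 FPKM in iGLI2 libraries. Of 6 endothelial and blood cell markers, 5 were under 1 FPKM in every library. The exception was CD14, a monocyte receptor, which was at 4.10, 4.57 and 5.26 FPKM in iEV and lower, at 1.30, 1.94 and 1.61 FPKM, in iGLI2 libraries (limma adjusted p = 0.00274). The summed level of that list was 4.52 to 5.69 FPKM in iEV and 1.55 to 2.31 FPKM in iGLI2 libraries. The part of these markers in the collagen values was not tested.

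Of the 44 collagen genes, 12 had a mean of at least 1 FPKM in iEV or iGLI2 cells, and these are called expressed here. The other 32 were silent by this rule. All 12 expressed genes also reached 1 FPKM on average across both groups and so entered the test, which was limma's moderated test on log2(FPKM + 1), two-sided, with Benjamini-Hochberg adjustment over 12493 genes. At an adjusted p under 0.05, 8 of the 12 were higher in iGLI2 cells (66.7%), where 10.1% of all genes tested were. These were COL13A1, COL7A1, COL8A1, COL6A1, COL4A1, COL1A1, COL27A1 and COL17A1. With limma 0 of the 12 were called lower (1 at an unadjusted p under 0.05), where 11.8% of all genes were. The median log2 fold change over the 12 genes was 0.62, and over all genes tested it was -0.015. COL13A1 and COL7A1 had iEV means under 1 FPKM and passed the filter through their iGLI2 values, so these counts do not describe the family as a whole. In bulk RNA, more cells with a transcript and more transcript per cell cannot be told apart.

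The groups did not overlap in 11 of the 12 expressed genes, with iGLI2 above iEV in 10 and below in 1. Over all genes tested these shares were 19.2% above and 22.8% below. The 10 include COL13A1 and COL7A1, which passed the filter through their iGLI2 values, so their place above iEV follows in part from the filter. Summed over the 44 collagen genes, the 3 iEV libraries held 184, 207 and 195 FPKM, against 298, 447 and 442 FPKM in the 3 iGLI2 libraries. COL6A1 alone made up 43.5% to 46.3% of this sum in iEV and 54.6% to 55.8% in iGLI2 libraries. In the iGLI2 group replicate 1 had the lowest value of the 3 for all 12 expressed genes, as it had for 52.6% of all genes tested. Its GLI2 level was also the lowest of the group, and the part of GLI2 level in the spread of the collagen values was not tested.

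**Figure D1:**
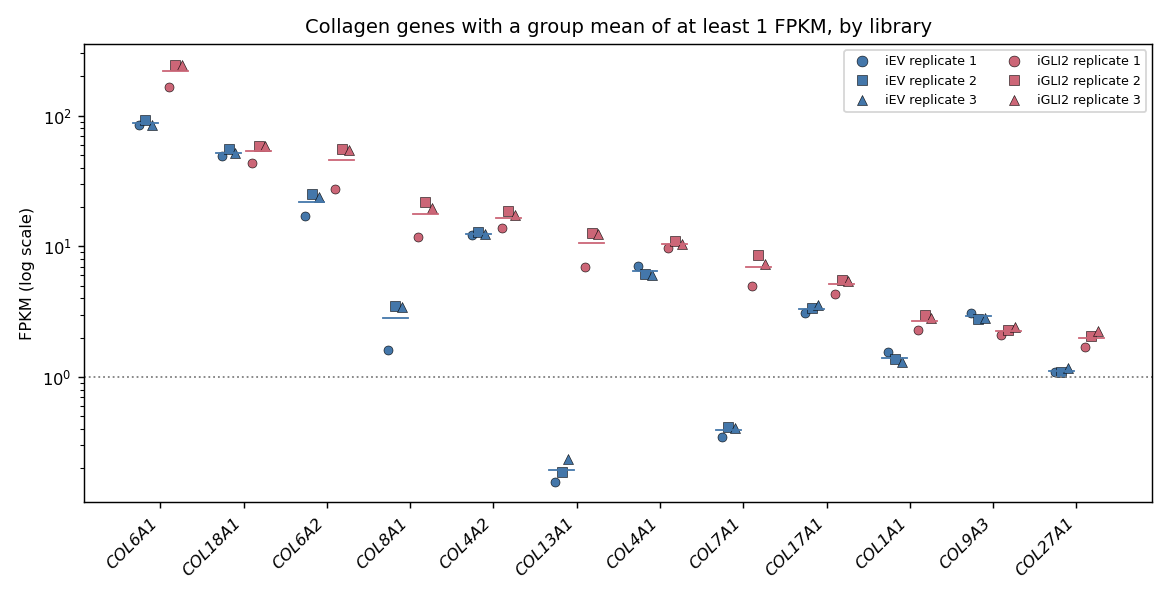
Level of the 12 expressed collagen genes in each library, in FPKM on a log scale, with iEV in blue and iGLI2 in red. Symbols mark replicates 1 to 3, short lines the mean of 3 libraries and the dotted line 1 FPKM. COL13A1 and COL7A1 lie under 1 FPKM in iEV and between 4.95 and 12.7 FPKM in iGLI2 libraries, and iGLI2 replicate 1 is the lowest of its group for all 12 genes.

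**Figure D2:**
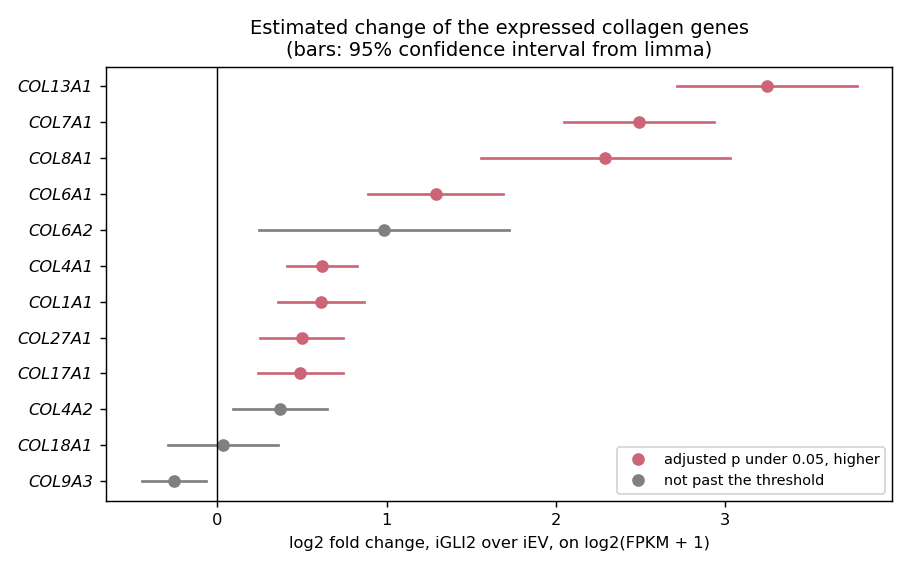
Log2 fold change of iGLI2 over iEV for the 12 expressed collagen genes on the log2(FPKM + 1) scale, with 95% confidence intervals from limma. Red marks the 8 genes with an adjusted p under 0.05, and grey the 4 others. The estimates run from -0.26 for COL9A3 to 3.25 for COL13A1.

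Among the 4 transmembrane collagens, COL13A1 and COL17A1 were expressed. COL13A1 encodes a single-pass membrane collagen found at sites of cell adhesion and at the neuromuscular junction, and it lies on chromosome 10 of hg19 from 71561644 to 71718904 on the plus strand. Its level in iEV replicates 1, 2 and 3 was 0.158, 0.188 and 0.237 FPKM, and in the iGLI2 replicates 6.99, 12.7 and 12.4 FPKM. All iGLI2 libraries stood far above all iEV libraries, with means 54.9-fold apart. At such iEV levels a value can rest on few fragments, so the size of this ratio is uncertain. With limma the log2 fold change of COL13A1 was 3.25 (standard error 0.22, adjusted p = 0.000554). It exceeded those of the other 11 expressed genes, and the added 1 holds it well under the ratio of means. COL17A1 encodes collagen XVII, also known as BP180, which links the keratin cytoskeleton to the basement membrane in hemidesmosomes. It was at 3.11, 3.37 and 3.55 FPKM in iEV and at 4.33, 5.58 and 5.45 FPKM in iGLI2 replicates 1, 2 and 3. The groups did not overlap, and the mean was 1.53-fold higher in iGLI2 cells (log2 fold change 0.49, standard error 0.10, limma adjusted p = 0.0216). This call was lost when any library but iGLI2 replicate 1 was left out, with adjusted p of 0.0621, 0.0816 and 0.0654 without iEV replicates 1, 2 and 3 and 0.0826 and 0.0802 without iGLI2 replicates 2 and 3. COL23A1 and COL25A1 were silent, at no more than 0.0455 FPKM in any library.

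COL7A1 encodes the single chain of collagen VII, the main component of the anchoring fibrils under squamous epithelia, and it lies on chromosome 3 from 48601506 to 48632593 on the minus strand. The level was 0.349, 0.414 and 0.406 FPKM in iEV and 4.95, 8.64 and 7.31 FPKM in iGLI2 replicates 1, 2 and 3. All iGLI2 libraries stood far above all iEV libraries, and the means differed 17.9-fold. The iEV values can rest on few fragments here too, so the size of this ratio is uncertain. In limma COL7A1 had a log2 fold change of 2.49 (standard error 0.18, adjusted p = 0.000706). The estimate stayed between 2.34 and 2.69 with each library left out in turn. Among the genes tested, the mean of COL7A1 stood at percentile 1.03 in iEV and 36.5 in iGLI2 cells. For COL13A1 these percentiles were 0.785 and 48.5. Both genes were under 1 FPKM in iEV cells and passed the filter through their iGLI2 values. Their low iEV percentiles therefore follow from the filter and are not a result.

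COL13A1 and COL7A1 had the largest estimates among the members, and COL17A1 is set beside them as the other expressed transmembrane collagen, with a smaller change. Their promoter windows, from 250 bases before to 50 bases after the start, are shown so that the sequence of these starts can be compared. They come from RefSeq on GRCh38.p14, at chr10:69801656-69801955 on the plus strand for COL13A1, chr3:48595280-48595579 on the minus strand for COL7A1 and chr10:104085831-104086130 on the minus strand for COL17A1. Each is written from 5′ to 3′ on the strand of its gene. Capitals mark matches, by letters alone, to the core of the GLI consensus, the GC box and the TATA box sequence on either strand.
COL13A1: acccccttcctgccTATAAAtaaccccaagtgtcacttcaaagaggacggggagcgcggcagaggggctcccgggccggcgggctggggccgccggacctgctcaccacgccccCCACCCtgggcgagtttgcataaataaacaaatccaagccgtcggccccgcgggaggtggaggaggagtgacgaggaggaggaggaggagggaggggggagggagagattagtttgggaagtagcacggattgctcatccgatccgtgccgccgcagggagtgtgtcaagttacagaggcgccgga
COL7A1: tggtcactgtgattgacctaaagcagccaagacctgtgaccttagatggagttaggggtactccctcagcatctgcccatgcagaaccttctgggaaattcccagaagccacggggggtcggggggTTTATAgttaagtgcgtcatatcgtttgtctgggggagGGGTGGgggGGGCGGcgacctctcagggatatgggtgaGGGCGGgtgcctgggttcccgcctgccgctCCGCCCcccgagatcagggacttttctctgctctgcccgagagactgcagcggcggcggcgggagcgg
COL17A1: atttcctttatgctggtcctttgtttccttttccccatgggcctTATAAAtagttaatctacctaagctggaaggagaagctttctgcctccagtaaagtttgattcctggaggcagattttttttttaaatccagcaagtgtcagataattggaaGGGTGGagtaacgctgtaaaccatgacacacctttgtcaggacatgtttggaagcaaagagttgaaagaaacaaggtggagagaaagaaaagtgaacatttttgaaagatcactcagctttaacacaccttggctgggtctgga
The core of the GLI consensus GACCACCCA is CCACCC, the GC box bound by SP factors is GGGCGG, and the TATA box was searched as TATAAA. Counted from the start, CCACCC begins at base -136 in COL13A1, and its reverse complement GGGTGG at -86 in COL7A1 and -94 in COL17A1. COL7A1 holds 3 matches to the GC box and the other windows none. TATAAA or its reverse complement lies at -236, -124 and -206 in COL13A1, COL7A1 and COL17A1. These are matches by letters, and whether any of them acts as a TATA box was not tested. The COL17A1 window is the poorest in G and C, at 40.7% against 64.0% for COL13A1 and 62.3% for COL7A1.

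Of the 44 collagen genes 32 had such a window, among them 8 of the 12 expressed genes. Some had several, as these 32 genes held 44 windows, and a gene was counted when any of its windows matched. The shares therefore also depend on the number of windows per gene. The full 9 letters of GACCACCCA were found in 0 of the 32 on either strand, and in 0.297% of 27305 genes with a window, so a match is rare in windows of this length in general. The core CCACCC, which lies inside it, was found in 20 of the 32 collagen genes (62.5%) and in 38.0% of all genes. It was present in 5 of the 8 expressed genes, COL13A1, COL17A1, COL18A1, COL6A2 and COL7A1. The GC box was found in 21 of the 32 (65.6%) against 48.3% of all genes, and TATAAA in 7 (21.9%) against 14.0%. Of the 5, COL13A1, COL7A1 and COL17A1 were called higher, while COL6A2 was not called and the level of COL18A1 did not differ detectably. COL4A1 and COL27A1, also called higher, had a window without the core, as had COL4A2, which was not called. COL1A1, COL6A1, COL8A1 and COL9A3 had no window, so the core was not looked for in them.

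COL8A1 encodes the α1 chain of collagen VIII, a short-chain collagen of endothelial and other cell layers that forms hexagonal networks. In iEV replicates 1, 2 and 3 it was at 1.61, 3.48 and 3.43 FPKM, and in iGLI2 replicates 1, 2 and 3 at 11.9, 21.9 and 19.6 FPKM. Replicate 1 was the lowest of each group, and the groups lay well apart. The means differed 6.27-fold (log2 fold change 2.29, standard error 0.30, limma adjusted p = 0.00444), and the estimate lay between 2.04 and 2.54 with each library left out. The table gives COL8A1 a locus on chromosome 3 from 99273153 to 99897476 that it shares with CMSS1 and FILIP1L, while GENCODE places the gene from 99357319 to 99518070. Neither neighbour followed it, with CMSS1 at 20.8 to 24.7 FPKM in iEV and 16.6 to 25.2 FPKM in iGLI2 libraries. COL8A2, the partner chain, stayed between 0.0616 and 0.182 FPKM. COL8A1 was 17.7 ± 3.21 times COL8A2 in iEV and 160 ± 29.0 times in iGLI2 cells (SD, n = 3 each). At such COL8A2 levels a value can rest on few fragments, so the size of these ratios is uncertain. COL10A1, the remaining network-forming gene and a marker of hypertrophic cartilage, was at no more than 0.00949 FPKM.

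COL6A1 and COL6A2 encode the α1 and α2 chains of collagen VI and stand on chromosome 21, at 47401663 to 47424963 and 47518033 to 47552763, on the same strand with 93069 bases between the loci. COL6A1 was the highest collagen transcript in every library, at 85.0, 92.7 and 84.7 FPKM in iEV and 166, 244 and 246 FPKM in iGLI2 replicates 1, 2 and 3. The groups were clearly apart, with a 2.50-fold higher mean in iGLI2 cells (log2 fold change 1.29, standard error 0.16, limma adjusted p = 0.00398). COL6A2 was at 17.0, 25.1 and 23.9 FPKM in iEV and at 27.6, 55.3 and 55.1 FPKM in iGLI2 replicates 1, 2 and 3. Here the lowest iGLI2 library was only just above the highest iEV library, and replicate 1 was the lowest of both groups. The log2 fold change of 0.98 (95% confidence interval 0.24 to 1.72) did not pass the threshold (limma adjusted p = 0.0674), and it did without iGLI2 replicate 1 (adjusted p = 0.00737). With any other single library left out it did not pass, at adjusted p of 0.137 to 0.191.

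Collagen VI is secreted as a heterotrimer of the α1 and α2 chains with a longer chain, most often the α3 chain of COL6A3. COL6A3 was silent here, at 0.304, 0.286 and 0.296 FPKM in iEV and 0.217, 0.275 and 0.207 FPKM in iGLI2 replicates 1, 2 and 3. COL6A5 and COL6A6, which encode alternatives to the α3 chain, did not exceed 0.00481 FPKM. Transcripts for the longer chains were thus far below those of COL6A1, with COL6A1 279 to 324 times COL6A3 in iEV and 766 to 1185 times in iGLI2 libraries. The ratio of COL6A1 to COL6A2 was 4.99, 3.70 and 3.54 in iEV and 6.00, 4.41 and 4.46 in iGLI2 replicates 1, 2 and 3. Replicate 1 had the highest ratio of each group, and the groups overlapped (exact two-sided permutation p = 0.3). With 3 libraries against 3 this test cannot go below 0.1, so it does not show whether the ratios differ.

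Of the 6 genes of collagen IV, COL4A1 and COL4A2 were expressed. They encode the chains of the common basement membrane network and stand head to head on chromosome 13, COL4A1 on the minus strand from 110801305 to 110959504 and COL4A2 on the plus strand from 110959631 to 111165373. As listed, 126 bases separate their loci, and this stretch, chr13:110959505-110959630 of GRCh37 on the plus strand, is shown because the listed loci of both genes start at its ends. Capitals mark the GC box GGGCGG.
COL4A1-COL4A2: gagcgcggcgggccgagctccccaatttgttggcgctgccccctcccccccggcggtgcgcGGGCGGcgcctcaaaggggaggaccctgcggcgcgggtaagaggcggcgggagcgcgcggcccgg
It holds 1 GC box and neither the GLI core nor the TATA box on either strand, and 80.2% of its bases are G or C. GENCODE lists a COL4A2 start further upstream, within COL4A1, so that the stretch is the gap between the loci of the table and not between all annotated starts.

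COL4A1 was at 7.13, 6.13 and 6.03 FPKM in iEV and at 9.71, 11.1 and 10.3 FPKM in iGLI2 replicates 1, 2 and 3. The groups did not overlap, and the mean was 1.61-fold higher in iGLI2 cells (log2 fold change 0.62, standard error 0.08, limma adjusted p = 0.00509). COL4A2 was at 12.2, 12.8 and 12.5 FPKM in iEV and at 13.7, 18.5 and 17.5 FPKM in iGLI2 replicates 1, 2 and 3. All iGLI2 libraries were above all iEV libraries, but replicate 1 only by a little, and the log2 fold change of 0.37 (95% confidence interval 0.09 to 0.65) had a limma adjusted p of 0.0667. Without iGLI2 replicate 1 it was 0.49 (adjusted p = 0.00383), and the call was also made with upper quartile scaling (0.0398), quantile normalization (0.0439) and the small RNA genes left out (0.0134). With any other single library left out the call was not made, at adjusted p of 0.151 to 0.187. The ratio of COL4A2 to COL4A1 was 1.96 ± 0.212 in iEV and 1.59 ± 0.153 in iGLI2 cells (SD, n = 3 each), with an exact two-sided permutation p of 0.1, the smallest that 3 libraries against 3 can give. An antisense gene, COL4A2-AS1, shares the COL4A2 locus at no more than 0.254 FPKM, and since strand-specific counting was not stated, its reads and those of COL4A2 cannot be told apart. The other pairs of this family are also arranged head to head, COL4A4 with COL4A3 at 5 bases and COL4A6 with COL4A5 at 346 bases in the table, and all 4 were silent. COL4A4 reached 0.0471 FPKM, COL4A3 and COL4A6 stayed under it, and COL4A5 was listed at 0 in all 6 libraries.

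Of the 11 fibril-forming collagens, COL1A1 and COL27A1 were expressed, both at low levels. COL1A1 encodes the α1 chain of collagen I, the main collagen of connective tissue and tumor stroma. It was at 1.54, 1.38 and 1.29 FPKM in iEV and at 2.28, 2.98 and 2.81 FPKM in iGLI2 replicates 1, 2 and 3. The groups did not overlap, and the mean was 1.91-fold higher in iGLI2 cells (log2 fold change 0.61, standard error 0.10, limma adjusted p = 0.0110). COL1A2, which encodes the α2 chain of the usual collagen I heterotrimer, did not exceed 0.0139 FPKM in any library, and COL3A1, a frequent companion in fibrils, did not exceed 0.0140 FPKM. COL27A1, a fibril-forming collagen known from cartilage, was at 1.09, 1.09 and 1.18 FPKM in iEV and at 1.70, 2.07 and 2.25 FPKM in iGLI2 replicates 1, 2 and 3. The mean was 1.79-fold higher in iGLI2 cells, with no overlap (log2 fold change 0.50, standard error 0.10, limma adjusted p = 0.0190). Its call was lost without iEV replicate 2 (adjusted p = 0.0692) or 3 (0.0525) and without iGLI2 replicate 2 (0.0606) or 3 (0.0505). Since the levels are so close to 1, the added 1 lowers both of these fold changes. With a pseudocount of 0.1 they were 0.88 for COL1A1 and 0.78 for COL27A1.

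COL18A1, a basement membrane multiplexin whose C-terminal fragment is endostatin, was the second most abundant collagen transcript in iEV cells. It was at 49.0, 55.5 and 52.1 FPKM in iEV and at 43.7, 59.2 and 58.8 FPKM in iGLI2 replicates 1, 2 and 3. The groups overlapped, with iGLI2 replicate 1 the lowest of all 6 libraries and iGLI2 replicates 2 and 3 the highest. The log2 fold change was 0.03 with a 95% confidence interval from -0.29 to 0.36 (limma adjusted p = 0.885), which leaves changes of up to that size undetected. COL9A3, a chain of the cartilage collagen IX and the only expressed gene of the 10 FACIT collagens (fibril-associated collagens with interrupted helices), went the other way. It was at 3.12, 2.80 and 2.81 FPKM in iEV and at 2.11, 2.27 and 2.42 FPKM in iGLI2 replicates 1, 2 and 3. All iGLI2 libraries were below all iEV libraries, but the log2 fold change of -0.26 (95% confidence interval -0.45 to -0.07) did not pass the threshold (limma adjusted p = 0.0634). The call was made with quantile normalization (adjusted p = 0.0340) and with limma without the trend (0.0463). It was not made with the small RNA genes left out (0.108) or with any single library left out (0.0722 to 0.147). The table gives COL9A3 a locus shared with TCFL5, which was at 10.5 to 11.4 FPKM in iEV and 15.3 to 19.2 FPKM in iGLI2 libraries. COL9A1 and COL9A2, which encode the other chains of collagen IX, were silent at up to 0.0537 and 0.575 FPKM.

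Among the 32 silent genes were all other fibril-forming collagens, COL15A1 and the remaining FACIT genes. Their highest value in any library was 0.575 FPKM, in COL9A2. Of the 32, 21 stayed under 0.1 FPKM in every library, of which 1, COL4A5, was listed at 0 throughout. The groups did not overlap in 8 of the 32, with iGLI2 above in 6 and below in 2. Among all genes with a mean above 0 and under 1 FPKM the shares were 12.0% above and 9.92% below. Those above were COL12A1, COL14A1, COL15A1, COL22A1, COL25A1 and COL4A4, and those below were COL2A1 and COL6A3.

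COL15A1, the other multiplexin and a component of vessel and muscle basement membranes, was at 0.0396, 0.0311 and 0.0256 FPKM in iEV and at 0.135, 0.312 and 0.250 FPKM in iGLI2 replicates 1, 2 and 3, a 7.23-fold difference of means. COL14A1, a FACIT of dense connective tissue, was at 0.140, 0.0942 and 0.132 FPKM in iEV and at 0.470, 0.312 and 0.322 FPKM in iGLI2 libraries, a 3.02-fold difference. COL22A1, a FACIT of tissue junctions, was at 0.0188, 0.0541 and 0.0549 FPKM in iEV and at 0.119, 0.154 and 0.117 FPKM in iGLI2 libraries. In the other direction, COL2A1, the fibrillar collagen of cartilage, was at 0.484, 0.348 and 0.264 FPKM in iEV and at 0.156, 0.0511 and 0.0958 FPKM in iGLI2 libraries, with an iEV mean 3.62 times that of iGLI2. These genes did not enter the test. In the fit without a filter on low values, 31 of the 32 could be fitted. There COL14A1 (limma adjusted p = 0.0182), COL15A1 (0.0318) and COL22A1 (0.0254) passed as higher and COL2A1 (0.0346) as lower. In that fit 15.1% of all genes were called in either direction. Of its 20035 genes 12493 averaged 1 FPKM or more, so this is not the share of low genes, which was not computed. At the levels of the silent genes a value can rest on few fragments, and the number of fragments is unknown.

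**Figure D3:**
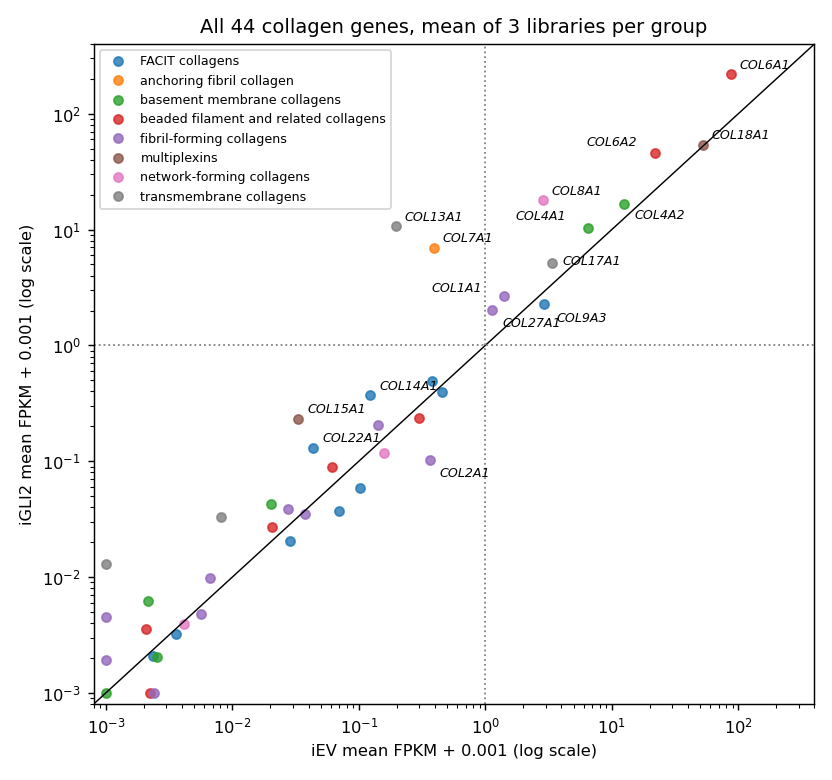
Mean level of all 44 collagen genes in iGLI2 against iEV cells, in FPKM with 0.001 added so that genes listed at 0 can be drawn, on log axes, with colors for the 8 structural groups. The solid line marks equal levels and dotted lines mark 1 FPKM. The 12 expressed genes lie above 1 FPKM in at least 1 group, with COL13A1 and COL7A1 the furthest above the line among them, and the 32 silent genes lie in the lower left field.

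Collagen chains need a set of enzymes and chaperones in the endoplasmic reticulum, carriers for export, proteases and cross-linking enzymes outside the cell, and receptors on the cell surface. Of 23 genes for collagen synthesis and export 20 were tested, and 3 were higher and 2 lower in iGLI2 cells (limma, adjusted p under 0.05). Their median log2 fold change was 0.17, against -0.015 over all genes tested. The share called, 5 of 20, stands beside 21.9% of all genes. FKBP10, a prolyl isomerase that assists procollagen folding and telopeptide hydroxylation, was at 2.90, 3.75 and 4.12 FPKM in iEV and at 7.26, 12.4 and 11.8 FPKM in iGLI2 replicates 1, 2 and 3, 2.93-fold higher by the means (limma adjusted p = 0.00990). P4HA2, a catalytic subunit of collagen prolyl 4-hydroxylase, was at 16.1, 16.9 and 16.0 FPKM in iEV and at 24.0, 25.8 and 25.8 FPKM in iGLI2 libraries (adjusted p = 0.00168). TRAM2, which takes part in collagen I synthesis, was at 15.7 ± 0.460 and 21.7 ± 2.65 FPKM (SD, n = 3 each, limma adjusted p = 0.0227).

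COLGALT1 and COLGALT2, the galactosyltransferases that modify hydroxylysine of collagen, were the lower ones. COLGALT2 was at 4.88, 3.08 and 3.30 FPKM in iEV and at 0.791, 0.702 and 0.694 FPKM in iGLI2 replicates 1, 2 and 3, with an iEV mean 5.15 times that of iGLI2 (limma adjusted p = 0.00226). Its iGLI2 mean was 0.729 FPKM, so it entered the test through its iEV libraries, and it is 1 of the 2 lower calls of this list. COLGALT1, the more abundant enzyme, averaged 46.2 ± 0.634 FPKM in the iEV and 38.1 ± 2.95 FPKM in the iGLI2 libraries (SD, n = 3 each, limma adjusted p = 0.0435). The calls of COLGALT1 and TRAM2 were each lost without any of the iEV replicates and without iGLI2 replicate 2, at adjusted p of up to 0.141 for COLGALT1 and up to 0.0946 for TRAM2, and that of COLGALT1 also without iGLI2 replicate 3 (0.0658) and with the small RNA genes left out (0.0556). Of the main chaperones, SERPINH1 (HSP47), P4HB and PPIB had adjusted p of 0.309, 0.837 and 0.966. P4HA1, another catalytic subunit, is named here although it was not called, because replicate 1 stood apart in it. It was at 15.1, 9.57 and 10.5 FPKM in iEV and at 44.5, 19.9 and 20.1 FPKM in iGLI2 replicates 1, 2 and 3 (limma adjusted p = 0.0670). The lysyl hydroxylase PLOD2 showed the same standing of replicate 1, at 27.0, 15.4 and 14.3 FPKM in iEV and 51.2, 18.8 and 18.2 FPKM in iGLI2 libraries (adjusted p = 0.477). Both enzymes, chosen after their values were seen, were highest in the libraries numbered 1. Of the 12 expressed collagen genes 8 were lowest and 3 highest there in the iEV group, and 12 of 12 were lowest in the iGLI2 group. For all genes tested the share lowest in iGLI2 replicate 1 was 52.6%, and no such share was computed for the iEV group.

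Of 13 genes for procollagen processing and cross-linking 6 were tested. With limma 0 were higher, also at an unadjusted p under 0.05, and 2 were lower, where 10.1% and 11.8% of all genes tested were. LOXL2, a lysyl oxidase active on basement membrane collagen IV, was at 37.1, 34.6 and 33.2 FPKM in iEV and at 25.2, 21.5 and 19.9 FPKM in iGLI2 replicates 1, 2 and 3 (log2 fold change -0.64, limma adjusted p = 0.00832). BMP1, which cleaves the C-propeptide of fibrillar procollagens, was at 4.79 ± 0.128 and 3.45 ± 0.198 FPKM (SD, n = 3 each, limma adjusted p = 0.0114). Its call was lost without iEV replicate 2 (adjusted p = 0.0523) or 3 (0.0523) and without iGLI2 replicate 2 (0.0517). The procollagen N-proteinases ADAMTS2, ADAMTS3 and ADAMTS14 were under 1 FPKM in every library, as was LOX.

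Of 11 collagen receptor genes 5 were tested, 4 were higher in iGLI2 cells and with limma 0 were lower, also at an unadjusted p under 0.05. The shares over all genes tested were 10.1% higher and 11.8% lower. The median log2 fold change of the 5 receptor genes was 0.86, and 1 of the 4 called, MRC2, passed the filter on low values through its iGLI2 libraries alone. ITGA2 encodes the α2 subunit of the collagen-binding integrin α2β1, and it was at 53.8, 51.6 and 52.1 FPKM in iEV and at 96.8, 96.1 and 95.3 FPKM in iGLI2 replicates 1, 2 and 3. The libraries of each group lay close together, 1.83-fold apart in the means (log2 fold change 0.86, standard error 0.05, limma adjusted p = 0.000398). Its partner ITGB1 was at 273, 265 and 270 FPKM in iEV and at 578, 531 and 514 FPKM in iGLI2 libraries, 2.01-fold higher. MRC2, an endocytic receptor that takes up collagen fragments, was at 0.472, 0.558 and 0.380 FPKM in iEV and at 2.68, 9.75 and 8.48 FPKM in iGLI2 replicates 1, 2 and 3. The iGLI2 libraries were all above the iEV libraries but differed among themselves, with replicate 1 the lowest (log2 fold change 2.30, standard error 0.41, limma adjusted p = 0.0127). That call was lost without iEV replicate 2 (adjusted p = 0.0536) or 3 (0.0595) and without iGLI2 replicate 3 (0.0516). DDR1, a receptor tyrosine kinase activated by collagen, was at 82.7, 75.8 and 75.3 FPKM in iEV and at 95.9, 98.2 and 97.7 FPKM in iGLI2 libraries (limma adjusted p = 0.0170). The DDR1 call was lost without iEV replicate 2 (adjusted p = 0.0805) or 3 (0.0683) and without iGLI2 replicate 2 (0.0694) or 3 (0.0608). DDR2 stayed at no more than 0.0370 FPKM. ITGA1, also on the list, was not found by name among the 25442 genes, so it has no value here.

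**Figure D4:**
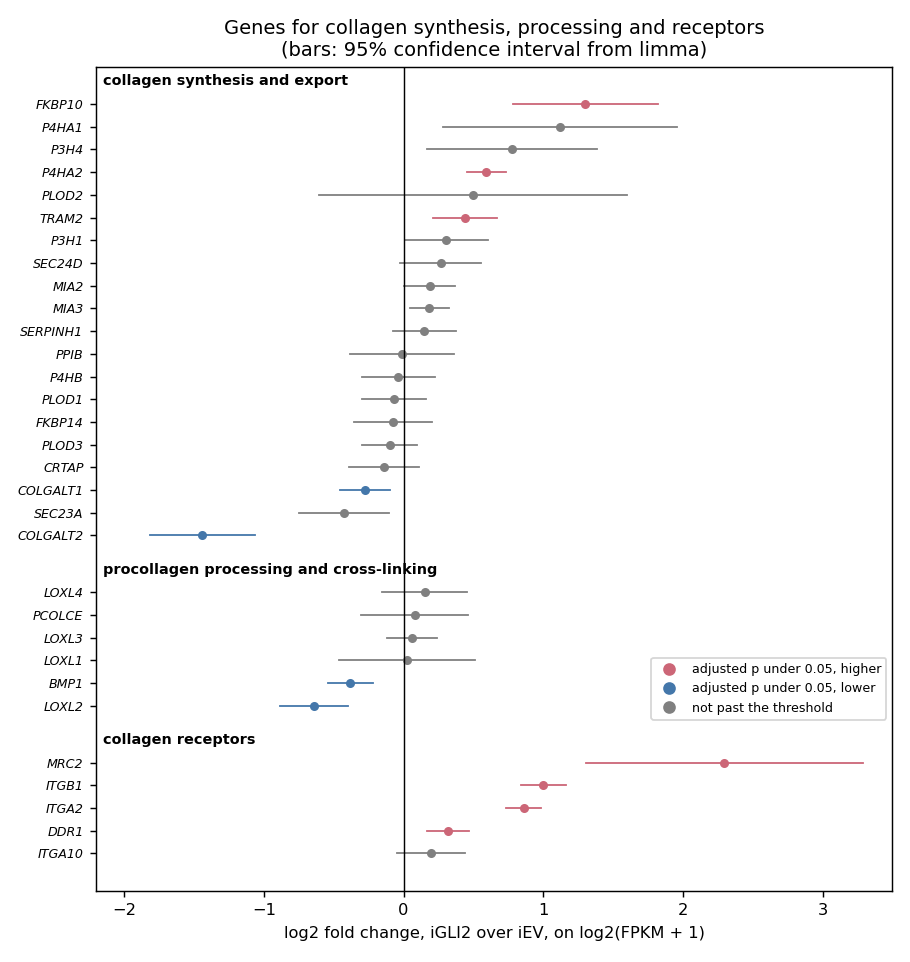
Log2 fold change of iGLI2 over iEV on the log2(FPKM + 1) scale for the tested genes of collagen synthesis and export (20), procollagen processing and cross-linking (6) and collagen receptors (5), with 95% confidence intervals from limma. Red marks genes called higher, blue genes called lower and grey the rest at an adjusted p of 0.05. Of the 5 receptor genes 4 are red, of the 6 processing genes 2 are blue, and in the synthesis list 15 of 20 are grey.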

How the data were processed

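RNA-seq was done on 6 libraries of YAPC cells, 3 iEV and 3 iGLI2, named and numbered from the sample labels. The authors trimmed the reads with Trimmomatic and aligned them to hg19 with TopHat2, and per the labels Cuffdiff 2.1.1 was used. The deposited table names no unit, and the values in it that the authors made were read as FPKM, since they are not whole numbers and their totals differ. The gene annotation, the scaling between libraries and the handling of reads that map to several places were not given in the sources used here. 0 columns of values were without a sample.

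Of 27024 entries, 1252 off the primary chromosomes and 330 of repeated names were left out, which left 25442 genes. Loci had 1 added to their start. Differences were tested with limma 3.58.1 (R 4.3.3) on log2(FPKM + 1). The 12493 genes that averaged 1 FPKM or more entered the fit, with an intensity trend, condition as the only term and Benjamini-Hochberg adjustment at 0.05. Python 3.11.15 was used for tables and figures. The script was tested on simulated data. All 44 loci overlap the GENCODE release 44 gene of that name on GRCh37. Fragment counts cannot be recovered from FPKM. In low genes the most frequent ratio to iEV replicate 1 ranged from 0.779 to 1.15 with no more than 5.32% of genes in the peak, so depth is unknown and no counting interval is given.

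The members and gene lists were chosen with earlier results of these data known. Genes named are all expressed collagen genes, and of each companion list the 4 called genes with the smallest adjusted p in each direction. Others, among them P4HA1 and PLOD2, were chosen after their values were seen. The alternatives were upper quartile scaling, quantile normalization, the small RNA genes left out with rescaling, a pseudocount of 0.1, no filter, a minimum mean of 5 FPKM, limma without the trend, leaving out single libraries and a block for the replicate number.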

Additional observations from a re-analysis of the deposited data

How the results depend on the processing

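Of 44 collagen genes, the number called higher was 8 and became 4 when only genes averaging 5 FPKM or more were tested, since COL7A1, COL17A1, COL1A1 and COL27A1 then left the test. With each library left out it lay between 6 and 10. The number called lower was 0 and became 1 with quantile normalization and with limma without the trend (COL9A3 in both) and 1 with no filter on low values (COL2A1). With each library left out, the number of all genes called lay between 1223 and 3753 (2742 with all 6) and that of companion genes between 6 and 17 (11 with all 6). Over all genes 1223, 1303, 1357 and 1510 were called without iEV replicates 2 and 3 and iGLI2 replicates 2 and 3, and 3753 without iGLI2 replicate 1. Of the companion genes 6 were called without iEV replicate 2, 6 without iEV replicate 3, 7 without iGLI2 replicate 2 and 17 without iGLI2 replicate 1. The other counts of genes called higher or in either direction stayed within 1.5 times. The log2 fold change of COL18A1 was -0.011 without iEV replicate 1, -0.040 without iGLI2 replicate 2, -0.036 without iGLI2 replicate 3 and 0.17 without iGLI2 replicate 1, with a lowest limma adjusted p of 0.103. COL13A1, COL7A1, COL8A1, COL6A1, COL4A1 and COL1A1 were called in every fit that tested them. Leaving out the small RNA genes moved the share of called genes that were higher from 46.0% to 59.3% and left the 8 collagen calls in place, with COL4A2 and COL6A2 added.

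Same-numbered libraries deviated together only in part, with correlations across genes of 0.204, 0.0919 and 0.0276 for replicates 1, 2 and 3. Since not every pair was above 0.1, the number was not taken to pair the libraries. Sample codes in the labels match between the groups for numbers 1 and 2 and not for 3. Within each group the codes of replicates 1 and 2 share the digit 1, and that of replicate 3 has the digit 2. What the codes stand for is not given in the sources used here, so whether replicates 1 and 2 share a source is unknown. With the replicate number as a block, 10 collagen genes were higher and 3928 genes were called in all, with COL4A2 (adjusted p = 0.0427) and COL6A2 (0.0106) added and no collagen call lost. Not every library correlated best with its own number, since iEV replicate 2 correlated more with iGLI2 replicate 3 (0.117). The depth behind each value is unknown, which limits what can be said of the silent genes.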
